A study of Mus musculus with 2 samples.

Results

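Tubulin isotypes were read as 9 genes: the alpha tubulins Tuba1a, Tuba1b and Tuba4a, the beta tubulins Tubb2a, Tubb3, Tubb4b, Tubb5 and Tubb6, and the gamma tubulin Tubg1. Members were taken as every probe set that the platform annotation assigns to exactly 1 of these genes, which gave 13 of the 10833 probe sets named for 1 gene. These 13 cover 8 of the 9 genes, since Tuba1b appears only in a probe set shared with Tuba1a, Tuba1c and Gm5620. RNA came from 3T3 cells, an immortalised mouse embryo fibroblast line kept in serum-free DMEM, with 1 Affymetrix MG_U74Av2 array for each of 2 groups. The suspension group was held unattached, and the fibronectin group was plated for 30 min on fibronectin at 10 µg/ml, a matrix protein that fibroblasts bind through integrins. The labels name genes induced by fibronectin and the MAPK pathway as the interest of the study. How long cells were in suspension before RNA was taken, and whether both samples came from 1 culture, is not stated in the sources at hand. The series text speaks of 2 replicates beside 2 samples, while 1 array for each group was analysed here. With 1 array a group no test between groups exists, so "higher" and "lower" describe these 2 arrays. The arrays also differed in chip lot, operator, fluidics module and scan day, which cannot be told apart from the condition.

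Microtubules are hollow polymers of a heterodimer of alpha and beta tubulin, and gamma tubulin sits in the ring complexes that start new microtubules, above all at the centrosome. Vertebrates carry several alpha and beta genes, the isotypes, whose proteins are nearly alike except for a short acidic tail at the carboxyl end. Fibroblasts rebuild their microtubule array when they attach and spread. Tubulin messages are also under a feedback known as autoregulation, in which a rise of unpolymerised tubulin leads to decay of tubulin mRNA while it is being translated.

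To show what the member genes carry upstream, the 250 bases before the start are printed for 4 of them, 5′ to 3′ on the gene's strand, from RefSeq's GRCm38.p6. The first 3 are among the genes whose measured probe sets were all lower on fibronectin, and Tubb5 is 1 of 2 beta tubulins, with Tubb3, whose probe sets split in direction. Capitals mark CCAAT (the motif of the factor NF-Y), GGGCGG (the GC box) and TATAAA (the TATA box), each searched on both strands.
Tuba1a, chr15:98953502-98953751, minus strand: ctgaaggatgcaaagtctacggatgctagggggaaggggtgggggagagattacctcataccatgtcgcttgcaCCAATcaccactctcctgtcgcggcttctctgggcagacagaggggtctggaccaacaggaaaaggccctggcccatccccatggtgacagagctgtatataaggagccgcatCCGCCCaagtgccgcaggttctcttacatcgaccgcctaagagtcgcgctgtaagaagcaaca
Tubb2a, chr13:34078009-34078258, minus strand: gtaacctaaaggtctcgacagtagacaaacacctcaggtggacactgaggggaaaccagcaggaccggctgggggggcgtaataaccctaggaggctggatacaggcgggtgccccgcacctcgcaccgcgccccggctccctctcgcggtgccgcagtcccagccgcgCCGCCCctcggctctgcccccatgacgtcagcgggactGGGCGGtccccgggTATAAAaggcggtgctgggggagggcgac
Tubb4b, chr2:25224703-25224952, minus strand: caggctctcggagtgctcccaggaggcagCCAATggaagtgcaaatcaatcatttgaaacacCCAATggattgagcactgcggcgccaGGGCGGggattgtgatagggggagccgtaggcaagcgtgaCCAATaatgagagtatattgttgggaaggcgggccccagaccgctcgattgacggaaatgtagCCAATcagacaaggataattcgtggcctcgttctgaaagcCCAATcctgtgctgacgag
Tubb5, chr17:35838302-35838551, minus strand: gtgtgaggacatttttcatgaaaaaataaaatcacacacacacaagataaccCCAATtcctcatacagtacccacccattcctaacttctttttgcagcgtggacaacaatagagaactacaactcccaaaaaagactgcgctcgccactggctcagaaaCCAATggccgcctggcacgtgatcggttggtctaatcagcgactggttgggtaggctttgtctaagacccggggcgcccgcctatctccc
Sequences were found for 7 of the 9 members. CCAAT was present upstream of 4 of these 7, against 33.8% of all 32851 listed promoters of the same length. The Tubb4b sequence held 5 matches, at 221, 188, 122, 59 and 19 bases before the start, and 0.213% of all promoters held at least 5. GGGCGG was found in 6 of the 7, against 32.7% of all, and TATAAA in Tubb2a alone, 29 bases before its start, against 12.4% of all. The CArG box, the site of the serum response factor, was found in 0 of the 7 and in 1.47% of all promoters. These are matches of letters within this window and are not measurements of binding.

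Signals are MAS5 intensities on a linear scale, and signals below a common floor of 490 were set to it before a fold was taken. A fold with 1 array below the floor is therefore a bound. As a measure of background, the 95th percentile of 34 negative control probe sets was 1403 in suspension and 1873 on fibronectin, and their highest signals were 1452 and 2527. Of the 13 tubulin probe sets, 12 reached the floor in at least 1 array, 10 in both, and 7 lay above the negative controls' 95th percentile in both. The remaining probe set, 161592_at of Tuba4a, read 54.8 and 64.7 and was not used.

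**Figure D1:**
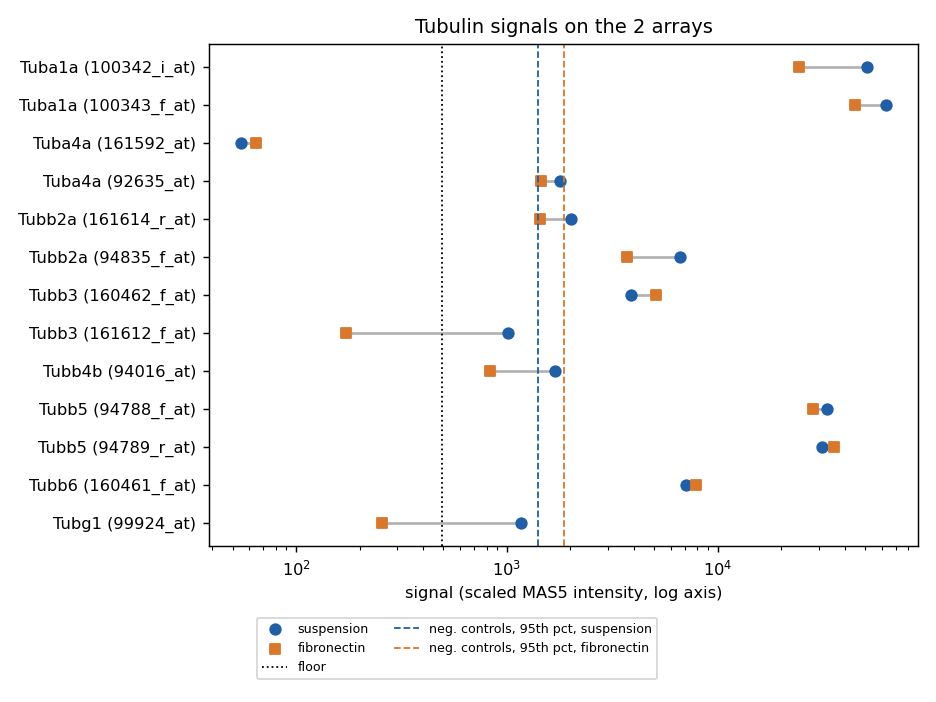
Signal of each of the 13 tubulin probe sets in suspension (circles) and on fibronectin (squares), on a log axis, with the floor (dotted) and each array's 95th percentile of negative controls (dashed). Both Tuba1a probe sets and both Tubb5 probe sets lie far to the right of all these lines, whereas Tubg1 and the second Tubb3 probe set lie below the dashed lines in both arrays, as does the unused Tuba4a probe set.

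The alpha tubulins were lower on fibronectin in all 3 measured probe sets, and in all 10 settings of scaling and floor. A floor cannot reverse the sign of a ratio, so only the scaling settings bear on direction, here and for the other probe sets. Tuba1a, the alpha isotype typical of developing neurons and also made by cultured fibroblasts, read 50991 in suspension and 24140 on fibronectin in probe set 100342_i_at. That is a 2.11-fold lower signal, a log2 ratio of -1.08, where ratios are fibronectin minus suspension throughout. Its other probe set, 100343_f_at, read 62737 and 44662, which is 1.40-fold lower. Both Tuba1a readings thus point the same way, with a difference in log2 ratio of 0.59 between them. The suffix _f marks a probe set that can detect related family members. The first probe set carries a suffix as well, _i, so neither Tuba1a probe set is of the plain kind. Tuba1b, a broadly expressed alpha isotype, could not be read alone. The probe set it shares with Tuba1a, Tuba1c and Gm5620, 98759_f_at, read 79388 in suspension and 80654 on fibronectin, a log2 ratio of 0.02 that was below 0 in 1 of 10 settings, with scaling to hybridisation spikes. Tuba4a, an alpha isotype whose gene does not encode the usual final tyrosine, read 1778 and 1442 in probe set 92635_at. This is 1.23-fold lower, and its fibronectin signal lay under the 95th percentile of negative controls there.

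Among the 5 beta tubulin genes, Tubb2a and Tubb4b were lower in each probe set, Tubb5 and Tubb3 were split, and Tubb6 was near its suspension level. Tubb2a, a class II beta isotype known for its abundance in brain, read 6629 in suspension and 3699 on fibronectin in 94835_f_at, which is 1.79-fold lower. Its second probe set, 161614_r_at, read 2021 and 1438, which is 1.41-fold lower, with the fibronectin signal below the negative controls' 95th percentile. Both readings of Tubb2a were below 0 in all 10 settings, as was that of Tubb4b. Tubb4b, a widely expressed class IV isotype that is also part of ciliary axonemes, read 1696 and 831 in its only probe set, 94016_at, which is 2.04-fold lower. Since the fibronectin signal of Tubb4b fell within the range of the negative controls, the size of that fold is uncertain, and a floor at those controls brought its log2 ratio to -0.05.

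Tubb5, the main beta tubulin of most dividing cells, read 32944 in suspension and 28201 on fibronectin in 94788_f_at, and 31167 and 35507 in 94789_r_at. The log2 ratios were -0.22 and 0.19, so the direction of Tubb5 was not settled. Both readings stayed within 1.5-fold, except that 94788_f_at was -0.70 with scaling to the spikes. Tubb6, a class V isotype, read 7082 and 7865 in 160461_f_at, a log2 ratio of 0.15 that was above 0 in 9 of 10 settings and -0.32 with scaling to the spikes.

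Tubb3, the class III isotype used as a marker of neurons, gave the widest disagreement within a gene. Its brighter probe set, 160462_f_at, read 3861 in suspension and 5096 on fibronectin, which is 1.32-fold higher, and was -0.07 on the log2 scale with scaling to the spikes. The other, 161612_f_at, read 1015 and 173, at least 2.07-fold lower, with both signals inside the range of the negative controls. The 2 log2 ratios lay at least 1.45 apart, since the lower one is a bound. The median gap was 0.56 in 592 genes with 2 probe sets above the floor in both arrays, of which 23.6% lay more than 2-fold apart. Tubb3 is not among those genes, because 1 of its signals fell below the floor. No direction was read for Tubb3.

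Neuronal markers were at or near background, apart from Stmn2. Of 8 neural marker genes on the array, 1 lay above the negative controls' 95th percentile in each array. That gene was Stmn2, with 4153 and 4482. Nefl, Nefm, Snap25, Syp and Map2 were below the floor in both arrays. Of 10 fibroblast markers, 8 in suspension and 7 on fibronectin lay above that percentile, among them Col1a1 with 45605 and 68592. Thy1 was below the floor, and Vim read 1421 and 686. Summed over their brightest probe sets, the fibroblast markers read 145934 and 215707, and the neural markers 5861 and 6225. Markers of other cell types were mostly near the negative controls, though Cd14 lay above them in both arrays. Of 5 muscle markers, 2 in suspension and 0 on fibronectin lay above that percentile, and the summed signals were 4236 and 3454. Among them Ckm was 2.50-fold lower and Myod1 2.36-fold lower, while Myog was 2.37-fold higher. Of 5 epithelial markers, 1 and 0 lay above it, with sums of 3682 and 2108, and Cdh1 was 1.94-fold lower. Of 6 macrophage and blood markers, 2 and 1 lay above it, with sums of 8226 and 6406. Most of that signal was Cd14, with 5342 and 3857, above that percentile in both arrays. Csf1r read 1844 and 1443, above that percentile in suspension only, and Ptprc, Lyz2 and Itgam were below the floor. The median log2 ratios of the measured muscle, epithelial and macrophage markers were -0.48, -0.32 and -0.35, from 4, 4 and 3 genes. The part of these marker levels in the tubulin ratios was not tested.

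Tubg1, the gamma tubulin of the ring complexes, read 1168 in suspension and 256 on fibronectin in its only probe set, 99924_at. The fibronectin signal lay below the floor, which makes it at least 2.38-fold lower. Neither signal reached the 95th percentile of negative controls. A floor at the 60th percentile brought the log2 ratio of Tubg1 to -0.15, and a floor at the negative controls left it unmeasured, so the fold rests on the choice of floor.

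**Figure D2:**
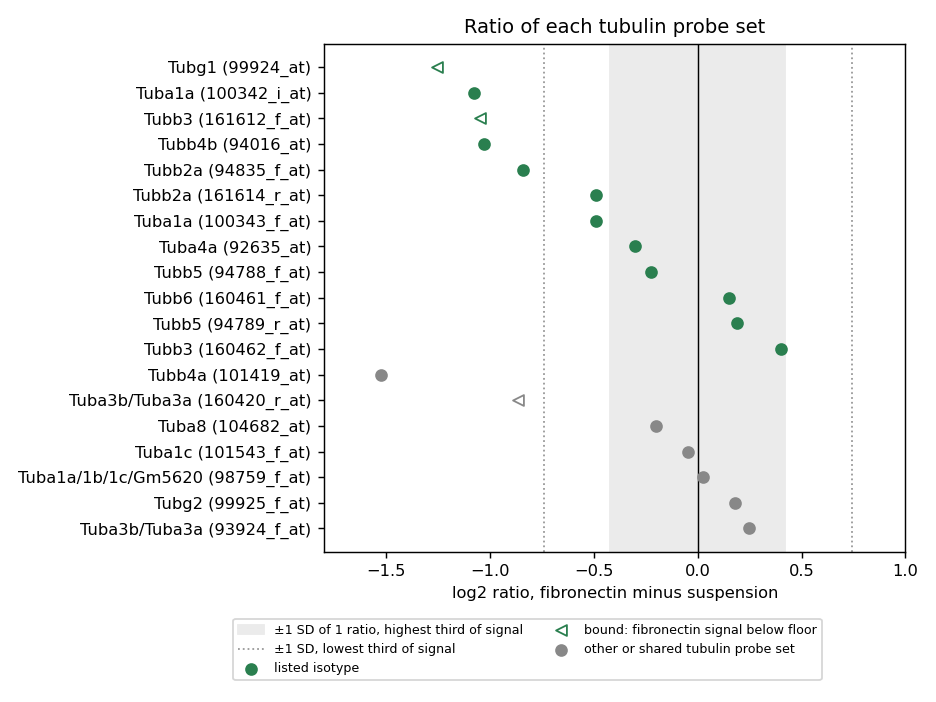
Log2 ratio (fibronectin minus suspension) of the 12 measured tubulin probe sets of the listed isotypes (green) and of 7 other or shared tubulin probe sets (grey), with open triangles for bounds. The band and the dotted lines are 1 SD of a single ratio, 0.42 for the highest tertile of signal and 0.74 for the lowest. Of the listed isotypes 9 lie left of 0 and 3 right of it.

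Over the 12 measured probe sets, 9 were below a ratio of 0 and 3 above. Of all 7735 measured probe sets named for 1 gene, 4227 were below 0 and 3508 above. The median log2 ratio of the 12 was -0.49, beside -0.08 over all 7735. At least 1.5-fold lower were 5 of 12, where 22.7% of all measured probe sets were, and at least 1.5-fold higher were 0 of 12, where 16.6% were. At 2-fold, 4 of 12 were lower and 0 higher, beside 9.48% and 6.4%. Among the 7 tubulin probe sets above the negative controls in both arrays, 2 were at least 1.5-fold lower, namely the first probe set of Tuba1a and the brighter one of Tubb2a, where 7.25% of all 2482 such probe sets were, and 0 were at least 1.5-fold higher, where 17.4% were. Their median was -0.22 beside 0.10 for those 2482. Tubulin coding sequences are closely related and several of these probe sets can share target, so the 12 readings are not independent of each other.

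An error for a single ratio can be taken from genes with 2 probe sets, which measure the same gene in the same RNA. The SD of a log2 ratio so estimated was 0.42 in the highest tertile of signal, 0.59 in the middle and 0.74 in the lowest, from 131, 97 and 92 genes. Only genes with 2 probe sets inside the same tertile entered these values. Over all 592 genes with 2 probe sets above the floor in both arrays, the SD was 0.62. Each such SD holds the disagreement between probe sets and leaves out any difference between cultures. Of the 12 tubulin ratios, 6 were larger than 1 such SD of their tertile, all 6 of them lower on fibronectin, and 3 of these 6 lay in the lowest tertile. The share of all measured probe sets past the same SD was not computed. The count therefore cannot be set against the array as a whole, on which more probe sets were lower than higher. The first probe set of Tuba1a and the brighter probe set of Tubb2a were larger than 2 SD of the highest tertile, at -2.57 and -2.00 SD. Against the wider SD of 0.62 these multiples would be smaller. Tubb4b, in the lowest tertile, stood at -1.39 SD. Tubg1 and the second probe set of Tubb3 are bounds, at least 1 SD lower with the floor in place, and their log2 ratios with no floor were -2.19 and -2.55, so their number of SD depends on the floor.

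**Figure D3:**
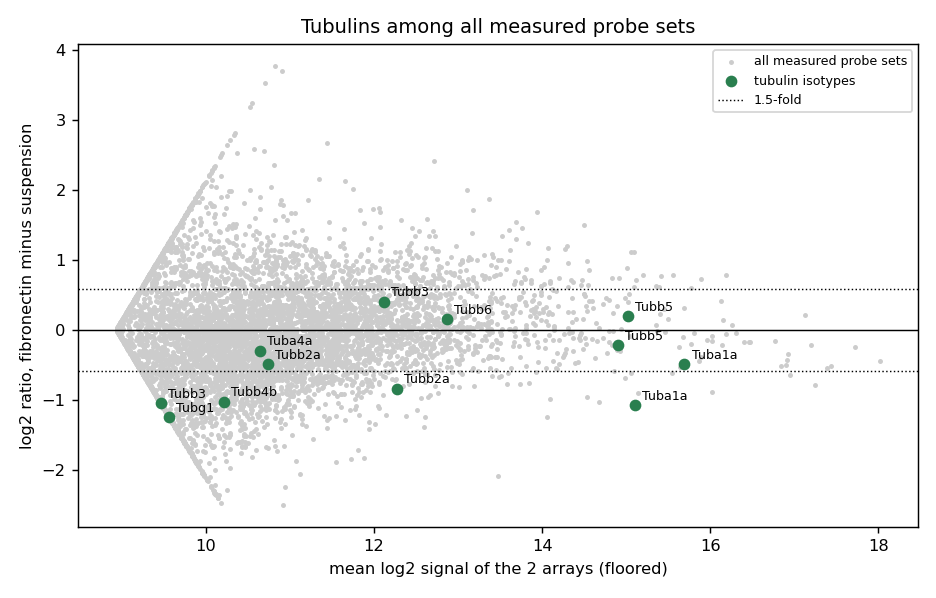
Log2 ratio against the mean log2 signal of both arrays for all 7735 measured probe sets (grey) and the 12 of the tubulin isotypes (green, named), with dotted lines at 1.5-fold. The fan at the left edge comes from the floor. Tuba1a and the brighter Tubb2a probe set lie below 0 at high signal, where the grey cloud is narrow, while Tubg1, Tubb4b and the second Tubb3 lie where it is wide.

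The scaling of the arrays moved the tubulins together with the other genes. Median scaling gave a median of -0.28 for the tubulins and 0.11 for all measured probe sets, and scaling to the 9 hybridisation spikes gave -0.96 and -0.50. Relative to the median of all measured probe sets, the tubulin median was -0.41 as reported, -0.39 with median scaling, -0.43 with quantile normalization or loess and -0.47 with the spikes. Under the spikes 12 of 12 tubulin probe sets were below 0, and 9 were at least 1.5-fold lower where 44.9% of all were. The share of all measured probe sets below 0 under the spikes was not computed, and their median there was -0.50. The floor mattered more for the relative value, which was -0.25 with a floor at the 60th percentile and -0.16 at the level of negative controls. Across the 10 settings of scaling and floor, the first probe set of Tuba1a stayed at least 1.5-fold lower in 10, with log2 ratios from -1.55 to -0.87, and the brighter probe set of Tubb2a in 10, from -1.32 to -0.63. Both probe sets read above each floor used, so only the scaling moved their ratios. Tubb4b stayed at least 1.5-fold lower in 9 of 10.

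**Figure D4:**
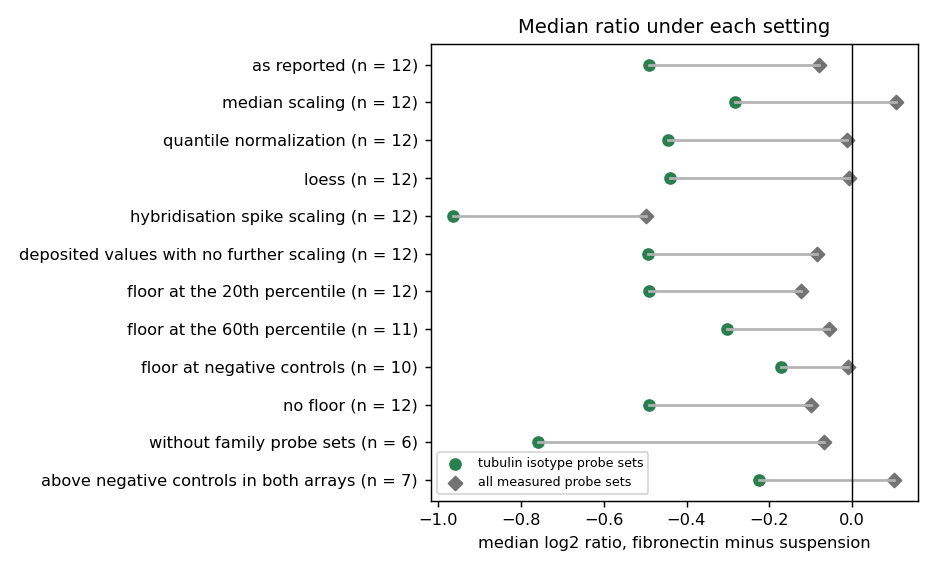
Median log2 ratio of the tubulin isotype probe sets (green) and of all measured probe sets (grey diamonds) under each setting, with the number of tubulin probe sets in brackets. In each of the 12 settings shown the tubulin median lies left of the median of all, by 0.16 to 0.69 on the log2 scale.

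Other tubulin genes on the array, which are not among the 9, gave a wider frame. Tubb4a, a beta isotype of the nervous system, read 2497 in suspension and 866 on fibronectin, which is 2.88-fold lower, with the fibronectin signal in the range of negative controls. Tuba1c, an alpha isotype, read 81976 and 79427, a log2 ratio of -0.05 that was above 0 in 2 of 10 settings. Tuba8 read 2691 and 2342 (log2 ratio -0.20) and was above 0 in 1 of 10 settings. Tubg2, the second gamma tubulin, read 702 and 794 (log2 ratio 0.18), within the range of negative controls in both arrays, and lay below a ratio of 0 in 1 of 8 settings. The 2 probe sets shared by Tuba3a and Tuba3b were split, at 0.25 (below 0 with scaling to the spikes) and at least 1.82-fold lower. The difference between these genes and the listed isotypes was not tested.

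Genes that act on tubulin did not share 1 direction. For tubulin folding, that is the CCT chaperonin, prefoldin and the tubulin cofactors, 17 genes were measured. Past 1.5-fold, 4 of them were higher and 1 was lower, beside 15.9% and 22.6% of all 6385 measured genes read by their brightest probe set. The median was 0.10, beside -0.09 for those genes. With scaling to the spikes it was -0.35, beside -0.51 for all measured genes. Vbp1, a prefoldin subunit, was 2.08-fold higher, with 1766 in suspension and 3680 on fibronectin. Arl2, a small GTPase that works with the cofactors, was 1.93-fold lower, with 2853 and 1478. Tbce, a cofactor that takes part in dimer assembly, was at least 1.998-fold higher with both signals, 169 and 979, within the range of negative controls. Cct3, a CCT subunit also counted as higher, had a log2 ratio of 0.86 in its brightest probe set and -1.27 and 0.93 in its others.

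For gamma-tubulin complex and centrosome genes, 8 of 10 measured genes were below 0 and 4 of them were at least 1.5-fold lower, while 0 passed that fold upwards, beside 22.6% and 15.9% of all measured genes. The median was -0.48 beside -0.09 for all measured genes, of which 3515 of 6385 were below 0. Only Cetn3, a centrin of the centrioles, was above the negative controls' 95th percentile, with 4048 in suspension and 2157 on fibronectin, which is 1.88-fold lower. Plk4, the kinase that starts centriole duplication, was at least 2.17-fold lower and Pcm1, a centriolar satellite protein, 1.86-fold lower, both from suspension signals under 1403. With the floor at the level of negative controls Cetn3 was the only gene left in the list. The list was written with earlier results of these data known.

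Proteins that bind and stabilise microtubules were mixed, with 2 of 18 measured genes higher and 4 lower by 1.5-fold or more, which is close to the 22.6% of all genes for the lower direction and set beside 15.9% for the higher. Their median, -0.12, was 0.06 with median scaling, beside 0.11 for all measured genes. With the 2 highest floors it was 0.04 and 0.23, beside -0.06 and -0.01. Map4, the main microtubule-associated protein outside neurons, read 3096 in suspension and 1370 on fibronectin, which is 2.26-fold lower, while the other Map4 probe set gave -0.72 on the log2 scale. The fibronectin signal of 1370 lay under the negative controls' 95th percentile. Map6, a protein that protects microtubules from cold, was at least 3.04-fold lower and Mapt (tau) at least 2.31-fold, from suspension signals of 1488 and 1134, close to the negative controls. Another Mapt probe set had a log2 ratio of -0.42. Of 9 depolymerising, sequestering and severing genes read by their brightest probe set, 1 was at least 1.5-fold lower and 0 were higher, beside 22.6% and 15.9% of all genes. That gene was Spast, the severing enzyme spastin, at least 2.53-fold lower from 1242, under the negative controls' 95th percentile. The list median was -0.11, beside -0.09 for all measured genes. With median scaling, where 8 genes of the list were measured, it was 0.06, beside 0.11 for all. Fignl1 and Arhgef2, a microtubule-bound activator of RhoA, had log2 ratios of -0.48 and -0.40, with -1.31 and -0.80 in their other probe sets. Arhgef2 on fibronectin, at 1518, lay under the negative controls' 95th percentile. Stmn2, a stathmin that sequesters tubulin, had 0.11 in its brightest probe set and -0.58 and -0.67 in its others.

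Microtubule motors were divided, with 11 of 22 measured genes above 0 and 11 below, beside 2870 and 3515 of all 6385 measured genes. Past 1.5-fold 3 motors were higher while 4 were lower, beside 15.9% and 22.6% of all genes. The median of the motors, -0.05, was 0.11 with median scaling, where that of all measured genes was also 0.11. Dynll2, a dynein light chain, was 2.63-fold higher in its brighter probe set, with 1301 and 3420, and had 0.13 in the other. The dynein intermediate chain Dync1i1 was 2.60-fold lower, with 3770 and 1451, and Actr1a, the actin-related protein of dynactin, was 2.38-fold lower, with 1512 and 637. Of the enzymes that modify tubulin, the deacetylases Hdac6 and Sirt2 were measured, with log2 ratios of 0.31 and 0.42 that were -0.17 and -0.06 with scaling to the spikes.

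**Figure D5:**
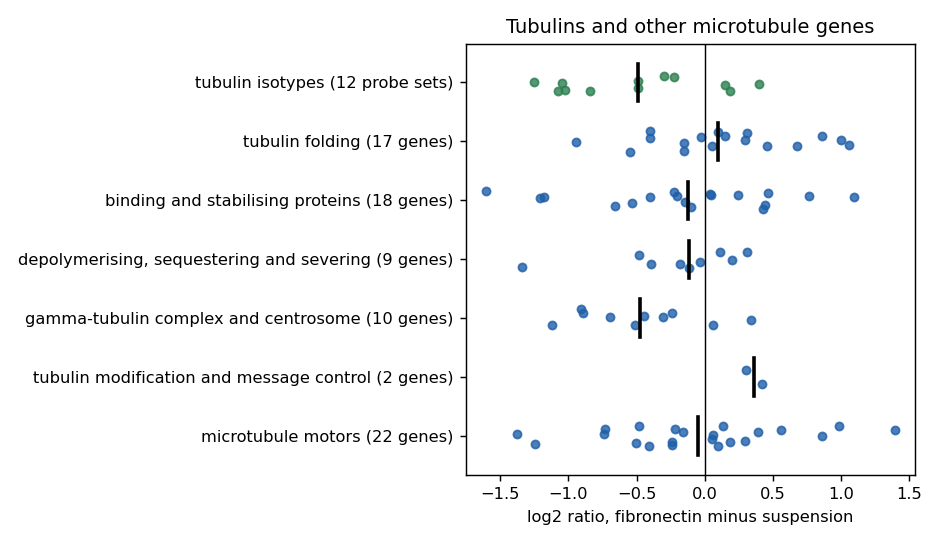
Log2 ratio (fibronectin minus suspension) of the 12 tubulin isotype probe sets (green) and of the measured genes of 6 lists of microtubule genes (blue, brightest probe set), with a black bar at each median. Values below the floor were set to the floor, and the medians run from -0.49 for the isotypes to 0.36 for the modification enzymes, of which only 2 were measured.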

How the data were processed

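The authors deposited linear intensities, a single signal for every probe set, from MAS5, per the submitters' processing notes. No source at hand gives its version or scaling target. Arrays were brought to a common 2% trimmed mean, taken over the 12422 probe sets other than controls, with factors of 0.999 and 1.001. Signals below a common floor, the mean of both arrays' 40th percentiles (490), were set to it before log2 was taken. A probe set was measured if 1 array reached the floor, and a ratio with 1 array below it is a bound, written "at least N-fold".

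Gene names came from the platform annotation. Named genes were all members, the other tubulins and up to 3 genes with the largest absolute ratio in each of 6 lists. Cct3 was named as well because its probe sets disagreed. The cell type markers named in the text and the printed promoters were picked after their values were seen. Members and lists were chosen with earlier results of these data known. Negative controls were antisense, Bacillus and yeast control probe sets. Alternatives were other scalings, other floors, and other ways to pick probe sets. The ratio code was tested on simulated data. Python 3.11.15, pandas 2.3.3, numpy 2.4.6 and statsmodels 0.14.6 were used. The number of arrays limits the precision.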

Additional observations from a re-analysis of the deposited data

How the results depend on the processing

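No paired analysis was possible because each group had 1 array and the labels give no shared replicate numbers. The tubulin median, -0.49, kept its sign in every setting run: it was -0.28 with median scaling, -0.96 with scaling to the spikes, -0.30 with the floor at the 60th percentile and -0.17 with the floor at negative controls. In 2 settings chosen after seeing the data it was -0.76 without family probe sets (suffix _f) and -0.22 for probe sets above negative controls in both arrays. The count at least 1.5-fold lower, 5, was 9 with the spikes, 3 with the floor at the 60th percentile, 2 with the floor at negative controls, 3 without family probe sets and 2 above negative controls in both arrays. The count at least 1.5-fold higher, 0, became 1 with median scaling, the brighter Tubb3 probe set at 0.61. That probe set was -0.07 with the spikes. The 5 tubulin probe sets past 1.5-fold as reported kept their sign wherever they were measured, though a floor cannot reverse a sign. Signal over background limits Tubg1, Tubb4b, Tuba4a and the second probe set of Tubb3.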
